A study of Mus musculus with 2 samples.

Results

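The chemokine genes Cxcl13, Ccl19 and Cxcl14 were followed through single-cell RNA libraries of mouse bone marrow stroma from old and from adult animals. The genes were found by their symbols in the feature lists of both libraries, where they are 3 of 34144 genes. They were selected on their UMI counts, which stood apart between the ages in earlier work on the same data, so every difference between the ages below is a description and carries no test. Old and adult are each represented by 1 library of wild-type (WT) C57BL6 mice, with stromal cells from long bone marrow. Marrow was flushed and digested with collagenase IV, dispase and DNase. Red cell lysis, magnetic depletion of other blood cells and sorting against dead cells followed, and some blood cells remained in both libraries. The sources used here do not give the age of the mice in months, their sex, their number or any pooling, and a single library per age gives no measure of the spread between animals.

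Chemokines are small secreted proteins that guide cells along their gradients by binding receptors on the cell surface. Cxcl13 binds Cxcr5 and draws B cells into the follicles of lymph nodes and spleen. Ccl19 binds Ccr7, which brings T cells and dendritic cells into the zones around the follicles, and the atypical receptor Ackr4 takes Ccl19 up without signalling for movement. Cxcl14 is made by many epithelia and connective tissues, and its receptor is less well settled. In bone marrow, the CXCL12-abundant reticular (CAR) cells are mesenchymal cells along the sinusoids that are known as the main source of Cxcl12 and of the stem cell factor Kitl. The term homeostatic is used for chemokines made without infection or injury to keep lymphoid tissues in order.

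The promoters of the 3 genes are shown because they differ in the motifs they hold: the TATA box letters in that of Cxcl13, and in the other two a GAAA repeat of the kind found in interferon-response elements. Each sequence is the 250 bases before the annotated start, from RefSeq on GRCm38.p6, read along the gene's own strand and ending at the base before the start. The libraries themselves were counted on GRCm39, so these positions belong to the older build only. The capitals mark TATAAA in Cxcl13 and, in Ccl19 and Cxcl14, GAAA followed after any 2 bases by another GAAA.

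Cxcl13, chr5:95956689-95956938, plus strand: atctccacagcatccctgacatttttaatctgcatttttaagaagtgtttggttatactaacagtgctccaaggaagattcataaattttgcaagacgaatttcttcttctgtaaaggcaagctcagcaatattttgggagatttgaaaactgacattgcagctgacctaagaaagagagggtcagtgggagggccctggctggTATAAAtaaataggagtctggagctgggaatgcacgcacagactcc

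Ccl19, chr4:42756366-42756615, minus strand: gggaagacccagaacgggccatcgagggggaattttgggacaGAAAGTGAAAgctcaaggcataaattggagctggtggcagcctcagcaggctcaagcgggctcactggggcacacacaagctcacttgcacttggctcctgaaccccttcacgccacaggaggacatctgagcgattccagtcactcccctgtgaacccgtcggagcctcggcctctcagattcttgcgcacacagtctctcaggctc

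Cxcl14, chr13:56296552-56296801, minus strand: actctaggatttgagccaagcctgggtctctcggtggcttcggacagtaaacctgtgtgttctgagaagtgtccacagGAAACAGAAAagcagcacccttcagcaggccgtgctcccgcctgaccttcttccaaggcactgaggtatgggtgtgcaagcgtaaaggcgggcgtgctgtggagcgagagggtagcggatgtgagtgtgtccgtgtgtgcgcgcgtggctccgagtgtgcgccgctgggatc

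TATAAA began 46 bases before the start of Cxcl13, and it is held by 12.4% of the 32851 windows of 250 bases that stand before the annotated starts of 27025 genes. The GAAA repeat began 208 bases before the start of Ccl19 and 172 bases before that of Cxcl14, and 2.98% of all windows hold it. The NF-kB consensus, searched by name, stood in 7.25% of windows and in none of these 3. Both strands were searched, and no searched motif overlapped another in these windows. The Cxcl13 window held 42% G and C, against 58.4% for Ccl19, 59.6% for Cxcl14 and a median of 52.4% over all windows. A match of letters is a description of the sequence, not evidence that a factor binds there.

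Each library counts unique molecular identifiers (UMIs), with each UMI standing for the 3′ end of a transcript caught in a droplet, so levels are given as counts per 1000000 UMIs of the same cells (CPM) and not per length. The old library held 22298 cell barcodes with 229917243 UMIs, of which 18975 cells passed the filters at a median of 7736 UMIs. The adult library held 25635 barcodes with 208637421 UMIs, of which 22403 passed at a median of 7139 UMIs. The libraries shared 152 barcode strings, which were counted as separate cells. Cells were clustered with the 3 genes left out and named from marker lists, giving 10856 CAR-like cells in the old library (57.2%) and 12724 in the adult library (56.8%). At least 98.8% of the CAR-like cells of either library held Cxcl12, Lepr and Kitl, the defining CAR markers, each taken alone. Clusters were numbered by size. The CAR-like class was made of clusters 1, 2, 8 and 19 in the old library and of clusters 0, 3, 4 and 19 in the adult library, so cluster 19 is the only cluster of the class with 50 or more cells of both libraries. A further 3534 old and 2767 adult cells lay in unnamed clusters, which scored highest for CAR markers but failed the naming rule. Blood cells remained in unequal shares. Plasma cell-like cells were 7.17% of old and none of the adult cells, and erythroid-like cells 5.48% of old and 1.10% of adult cells. Megakaryocyte-like cells were 2.42% of old and 3.01% of adult cells, and neutrophil lineage-like cells 0.864% of old and 0.286% of adult cells.

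In CAR-like cells all 3 genes were higher in the old library, by very unequal amounts. Cxcl13, the B cell attractant, had 122.9 CPM in old CAR-like cells (10877 UMIs; 95% exact Poisson interval 120.6 to 125.3) and 7.06 CPM in adult ones (688 UMIs; 6.54 to 7.61). The difference was 17.4-fold, a log2 ratio of 4.12 (exact interval 4.01 to 4.24). Cxcl13 was thus at a moderate level in the old library and at a low level in the adult library. Ccl19, the T cell and dendritic cell attractant, had 246 CPM in the old library (21795 UMIs) and 119 CPM in the adult library (11632 UMIs). Its log2 ratio was 1.05 (1.01 to 1.08), or 2.06-fold. Cxcl14 was already abundant in the adult library, with 1479 CPM in old CAR-like cells (130830 UMIs) and 1130 CPM in adult ones (110206 UMIs). Its log2 ratio was 0.39 (0.38 to 0.40), or 1.31-fold. These intervals, and all others here, cover counting error only and would be wider if animals were compared.

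All 3 genes reached the minimum of 50 CPM and 50 UMIs in the library where they were higher, and Cxcl13 reached it through the old library alone. Cxcl13 and Ccl19 were among the 123 of 4182 genes past that minimum that were at least 2-fold higher in old CAR-like cells, which is 2.94% of all genes tested. For Ccl19 the call is lost when its near copy Ccl19-ps2 is added, at a log2 ratio of 0.999. Since the genes were picked for this contrast, nothing is read from that count. Ordered by log2 ratio, Cxcl13 stood at place 8, Ccl19 at 108 and Cxcl14 at 593 of the 4182 genes, whose median log2 ratio was 0.01. Lower by 2-fold or more were 73 genes (1.75%), so that 196 genes (4.69%) were apart in either direction.

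The share of cells with a UMI followed the levels for Cxcl13 and Ccl19 and hardly differed for Cxcl14. A Cxcl13 UMI was found in 15.9% of old CAR-like cells (1726 cells; exact binomial interval 15.2 to 16.6%) and in 2.30% of adult ones (293 cells; 2.05 to 2.58%). For Ccl19 the shares were 65.4% in old and 46.5% in adult CAR-like cells, and for Cxcl14 they were 89.9% in old and 89.2% in adult cells. Old CAR-like cells were slightly deeper, at a median of 7412 UMIs against 6966 in adult ones, so cells were also thinned to 1000 UMIs each. Thinned, the shares were 4.02% in old and 0.562% in adult cells for Cxcl13, 19.1% in old and 10.1% in adult cells for Ccl19, and 60.6% in old and 56.5% in adult cells for Cxcl14. The order of the ages stayed as in whole cells for each gene. Thinning left out 85 old and 84 adult CAR-like cells with fewer UMIs.

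Cxcl13 also differed from the other two genes in how its UMIs were spread over cells. Of the old CAR-like cells with Cxcl13, 803 held 1 UMI, 731 held 2 to 9, 184 held 10 to 99 and 8 held 100 or more. Those 8 cells carried 29.2% of all Cxcl13 UMIs of the class, and the 184 cells carried another 39.0%. Most of the Cxcl13 level of the old library therefore came from 192 of 10856 cells. Among adult cells, 180 held 1 UMI, 103 held 2 to 9 and 10 held 10 to 99, these last with 23.0% of the UMIs. None of the 12724 adult cells held 100 or more, which allows a share of up to 0.0236%. The highest count in a CAR-like cell was 955 UMIs in the old library and 23 in the adult library.

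Ccl19 and Cxcl14 were spread far more evenly. The 109 old CAR-like cells with the highest counts of each gene, 1% of the class, held 58.7% of the Cxcl13 UMIs, 9.57% of the Ccl19 UMIs and 6.27% of the Cxcl14 UMIs. The corresponding 128 adult cells held 76.0% of the Cxcl13 UMIs, 10.4% of the Ccl19 UMIs and 6.04% of the Cxcl14 UMIs. For Ccl19 and Cxcl14 the top cells thus took nearly the same share at both ages. The median CAR-like cell held 0 Cxcl13 UMIs in either library, 1 Ccl19 UMI in the old and 0 in the adult library, and 8 Cxcl14 UMIs in the old and 6 in the adult library. Because a few cells carry so many Cxcl13 UMIs, its Poisson intervals are narrower than the spread between cells. Without the 8 cells of 100 or more UMIs the Cxcl13 log2 ratio was 3.63, and without all cells of 10 or more in either library it was 2.89.

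**Figure D1:**
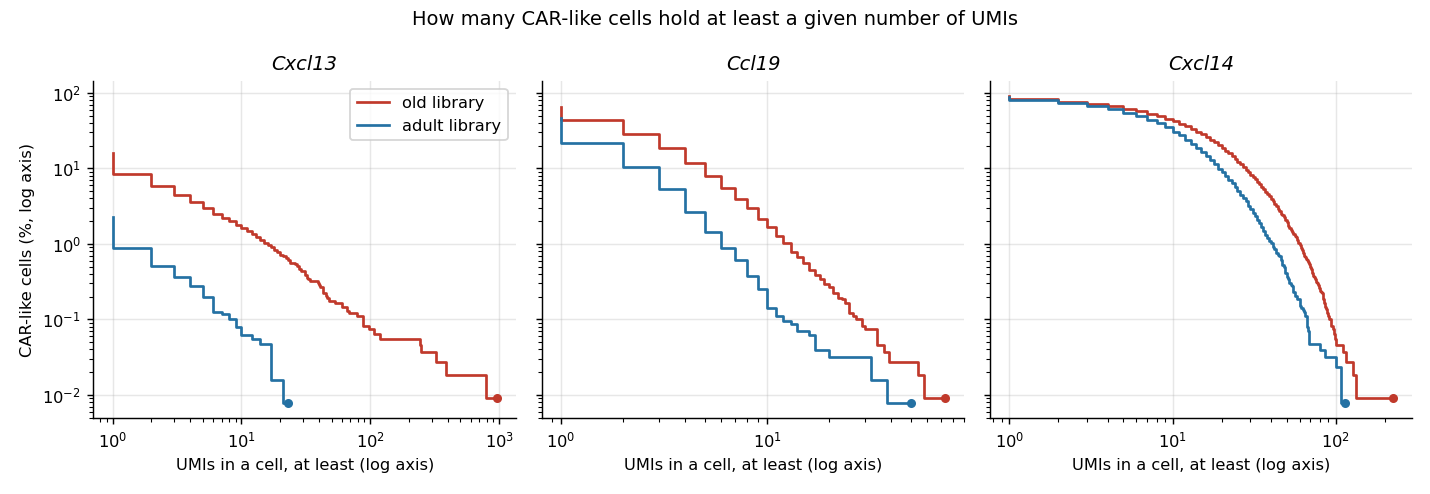
Share of CAR-like cells (%, log axis) holding at least the number of UMIs on the x axis (log axis), for Cxcl13, Ccl19 and Cxcl14, with the old library in red and the adult library in blue. The old Cxcl13 line reaches 955 UMIs and the adult one ends at 23, while the Cxcl14 lines start at 89.9% in the old and 89.2% in the adult library.

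The cells of highest Cxcl13 formed a gap in the distribution. In old cluster 2, 6 cells chosen after their values were seen held 955, 784, 388, 326, 249 and 243 Cxcl13 UMIs, and the next CAR-like cell held 119. Cxcl13 made up between 1.19% and 6.98% of all UMIs in these 6 cells. They held 73, 18, 26, 5, 9 and 39 Ccl19 UMIs in the same order, so Ccl19 was present in all of them. Their Cxcl14 counts were 2, 0, 2, 1, 18 and 1, so 5 of the 6 cells held at most 2 Cxcl14 UMIs. Summed, the 6 cells had 36032 CPM of Cxcl13, 2080 CPM of Ccl19 and 294 CPM of Cxcl14. The 3860 cells of the same cluster with fewer than 10 Cxcl13 UMIs had 33.7, 284 and 1277 CPM of these genes. All 6 cells stood above that level for Ccl19, and 5 of the 6 stood below it for Cxcl14.

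The same 6 cells were set against a list of 23 genes of lymphoid-tissue stroma, of which 7 were found in all 6 cells. The same share over all genes was not taken, so nothing is read from counts of this list. Most of the 7 are common in the rest of the cluster, with C4b in 95.0% of its cells, Vcam1 in 94.4% and Clu in 86.4%. Enpp2 was found there in 57.7%, Mfge8 in 47.7% and Icam1 in 44.5% of cells. Among the 7, Mfge8, an opsonin known from follicular dendritic cells, had 6668 CPM in the 6 cells, with 36 to 139 UMIs in each, against 89.2 CPM in the rest of the cluster. Bst1, a surface enzyme also known as BP-3, had 636 CPM in the 6 cells and 4.23 CPM in the rest, where 2.85% of cells held it. The remaining genes found in all 6 were Clu at 4405 CPM against 480 in the rest, Enpp2 at 2153 against 182, Vcam1 at 1933 against 849, Icam1 at 171 against 136 and C4b at 538 against 651. Another 7 of the 23 genes, including Madcam1, Cr2, Fcgr2b and Fcer2a, had no UMI in any of the 6 cells, which allows up to 36.7 CPM. Cr2 and Fcer2a encode complement and IgE receptors that mature follicular dendritic cells are known to carry.

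CAR markers were present but lower in these cells when summed, and the cells were unlike each other. Cxcl12 had 1370 CPM in the 6 cells against 6404 CPM in the rest of the cluster, Lepr 722 against 2512, Kitl 1835 against 4254 and Adipoq 73.4 against 961. Single cells held from 1 to 30 UMIs of Cxcl12, 1 to 29 of Lepr and 2 to 54 of Kitl. Hp had 2312 CPM in the 6 cells against 4241 CPM in the rest. It stood above the rest in the cells with 249 and 243 Cxcl13 UMIs, at 4469 and 5250 CPM. Of the 9 CAR markers, 4 were found in all 6 cells. Ebf3 was found in 5 of the 6, Foxc1 and Esm1 in 4, and Adipoq and Il7 in 2. In the rest of the cluster, Ebf3 was found in 98.4%, Foxc1 in 93.5%, Esm1 in 97.2%, Adipoq in 90.2% and Il7 in 38.1% of cells. The same share over all genes was not taken, so nothing is read from the count of 4. Pdgfra, a receptor carried by many mesenchymal cells, had 1260 CPM in the 6 cells and 529 CPM in the rest. Ptprc, Cd79a, Cd3e, Csf1r, Pecam1, Ccl21a, Dpt and Pi16, which mark blood, endothelial, other lymphoid stromal cells and fibroblasts, had no UMI in any of the 6. Of further genes of such cells, Jchain of plasma cells had 4 UMIs in 2 of the cells (48.9 CPM, against 22.4 in the rest), endothelial Cdh5 and smooth muscle Acta2 had 1 UMI each, and the bone collagen gene Col1a1 had 9 UMIs in 4 cells (110 CPM, against 79.8 in the rest). The median depth was 10500 UMIs in the 6 cells and 8078 in the rest, and whether any of the 6 is a doublet was not assessed. Their barcodes differ from each other by at least 5 of 16 bases. The label CAR-like comes from their cluster and was not assigned cell by cell, and no other name is given to them.

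**Figure D2:**
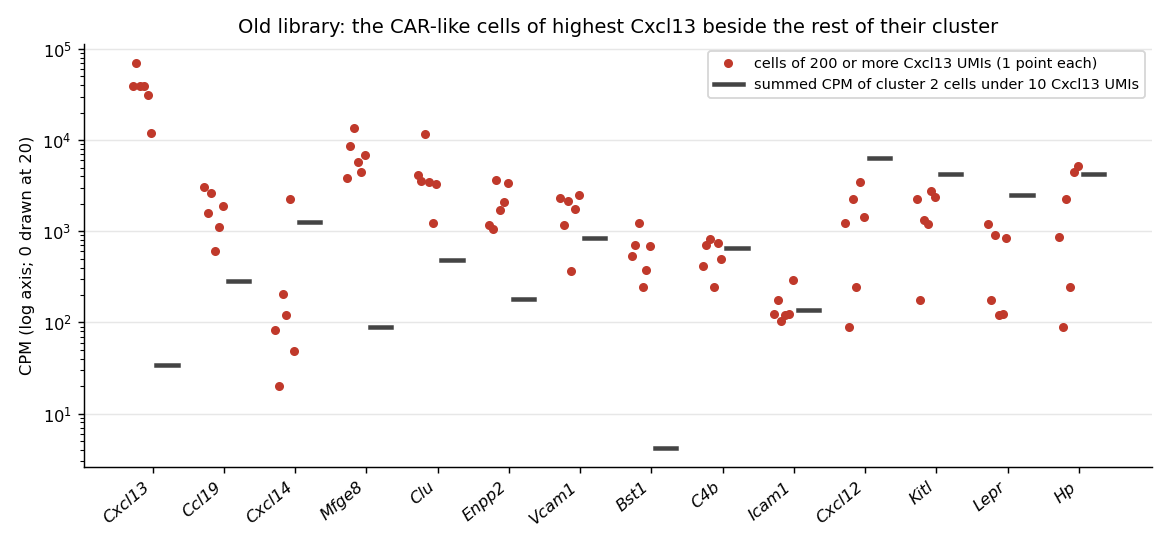
CPM (log axis, 0 drawn at 20) of selected genes in the 6 old CAR-like cells with 200 or more Cxcl13 UMIs (red points, 1 per cell), beside the summed CPM of the cells of the same cluster with under 10 Cxcl13 UMIs (grey bars). Mfge8, Clu, Enpp2 and Bst1 lie above the bars in all 6 cells, and Cxcl12, Kitl and Lepr lie below them.

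Across all kept cells, 362 old and 19 adult cells held 10 or more Cxcl13 UMIs. They were not confined to a single cluster. In the old library, 105 were in cluster 1, 70 in cluster 2, 93 in unnamed cluster 9, 35 in unnamed cluster 12, 18 in unnamed cluster 13 and 16 in cluster 19, and the rest were in other clusters. Of the 19 adult cells, 10 were in cluster 0, 4 in cluster 12 and 3 in cluster 5. Outside the CAR-like class, the highest counts were 153 UMIs in an old plasma cell-like cell and 137 and 127 UMIs in 2 cells of old cluster 9.

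Old CAR-like cells were compared by their Cxcl13 count, as a description within a library. Levels were taken over UMIs other than those of Cxcl13. The 192 cells with 10 or more UMIs had 443 CPM of Ccl19 and 2397 CPM of Cxcl14, against 237 and 1356 CPM in the 9130 cells without Cxcl13. The cells with most Cxcl13 were thus also higher in the other two genes, unlike the 6 cells above for Cxcl14. Of the 23 genes of lymphoid stroma, 13 were higher and 10 lower in the 192 cells than in cells without Cxcl13, whatever the size of the difference. The same share over all genes was not taken, so nothing is read from this count. Among the higher ones, Mfge8 had 349 CPM in the 192 cells against 67.9 CPM in cells without Cxcl13, Bst1 29.0 against 2.03, Enpp2 291 against 95.0, and Tnfsf13b, which encodes the B cell survival factor BAFF, 58.7 against 27.5. Among the lower ones, Grem1 had 431 CPM against 533, Des 10.9 against 19.97 and Cr2 0.804 against 3.75. Madcam1, Cd34, Fcgr2b and Fcer2a also count as lower, with no UMI in the 192 cells (interval up to 1.48 CPM). They had at most 0.606 CPM in cells without Cxcl13, so their direction is not settled. The 6 cells above carried most of the Mfge8 and Bst1, since the other 186 cells had 134 CPM of Mfge8 and 8.31 CPM of Bst1, while Enpp2 stood at 228 CPM and Tnfsf13b at 58.6 CPM without the 6. Of the interferon-induced chemokines, Cxcl9 had 1502 CPM against 265 and Cxcl10 384 against 99.5. Cxcl12 hardly differed, at 7986 CPM in the 192 cells and 7727 CPM in cells without Cxcl13, whereas Lepr had 1830 against 2995 CPM and Kitl 3379 against 4483 CPM. Map3k14, which encodes the NF-kB-inducing kinase, had 41.8 CPM in the 192 cells and 82.8 CPM in cells without Cxcl13. The median depth was 12110 UMIs in the 192 cells and 7009 UMIs in cells without Cxcl13. The groups also differed in their clusters. Cluster 19, led by interferon-induced genes, held 16 of the 192 cells and 148 of the 9130 cells without Cxcl13. Shallow cluster 8 held 1568 of the cells without Cxcl13, and no cell of it exceeded 9 UMIs. The parts of depth and of cluster make-up in these values were not tested.

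Ccl19 was found more often in CAR-like cells that held Cxcl13. In the old library 81.0% of the 1726 Cxcl13-positive cells also held Ccl19 (79.1 to 82.8%), against 62.5% of the Cxcl13-negative cells. In the adult library 54.6% of the 293 positive cells held Ccl19 (48.7 to 60.4%), against 46.3% of the negative cells. Positive cells are deeper, so cells were also thinned to 3000 UMIs, which left 9771 old and 11072 adult cells. Thinned, Ccl19 was found in 50.4% of positive (47.1 to 53.7%) and 44.0% of negative old cells. The thinned adult shares were 23.3% in positive (16.4 to 31.4%) and 26.8% in negative cells. At equal depth the pairing of Cxcl13 with Ccl19 was thus smaller in the old library and not detectable in the 133 positive adult cells.

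Within each of the 4 old clusters the pairing took the same direction, with 80.9% of Cxcl13-positive against 72.4% of negative cells holding Ccl19 in cluster 1, 85.6% against 74.8% in cluster 2, 21.7% against 9.06% in cluster 8 and 98.3% against 87.8% in cluster 19. In old cluster 19 the intervals of positive and negative cells overlapped, at 90.9 to 99.96% and 81.5 to 92.6%. In the adult clusters these intervals overlapped throughout, so no direction is read from them. The adult shares were 55.2% against 51.4% in cluster 0 (241 positive cells) and 64.5% against 59.4% in cluster 3 (31 positive cells). They were 23.1% against 9.12% in cluster 4 (13 positive cells) and 57.1% against 72.2% in cluster 19 (7 positive cells). These cluster shares were not thinned. Cxcl14 was found in 98.3% of Cxcl13-positive and 88.3% of negative old cells, and in 97.95% of positive and 89.0% of negative adult cells. Thinned, these shares were 95.6% against 87.0% in the old library and 92.5% against 87.0% in the adult library. Ccl19 was found in 71.1% of old cells with Cxcl14 and 15.5% of those without, and in 50.7% of adult cells with Cxcl14 and 11.9% of those without. Thinned, the gap shrank to 46.6% against 30.2% in the old library and 27.7% against 20.4% in the adult library. Cxcl14 was thus found in most cells that held Cxcl13 or Ccl19, but also in 89.9% of all old and 89.2% of all adult CAR-like cells. Its share was lower in the shallow clusters. In old cluster 8 it was 70.0% of Cxcl13-positive and 66.5% of Ccl19-positive cells, and in adult cluster 4 it was 65.7% of Ccl19-positive cells.

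All 3 genes were found together in 1388 old CAR-like cells (12.8%) and 160 adult ones (1.26%). Thinned to 3000 UMIs the triple-positive cells were 4.51% of the old and 0.271% of the adult cells. The most frequent combination was Ccl19 with Cxcl14, in 51.1% of old and 43.9% of adult cells. Cxcl14 alone accounted for 23.1% of old and 43.0% of adult cells, and no UMI of the 3 genes in 8.39% of old and 9.48% of adult cells. Cxcl13 without either of the others was rare, with 19 old and 6 adult cells.

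**Figure D3:**
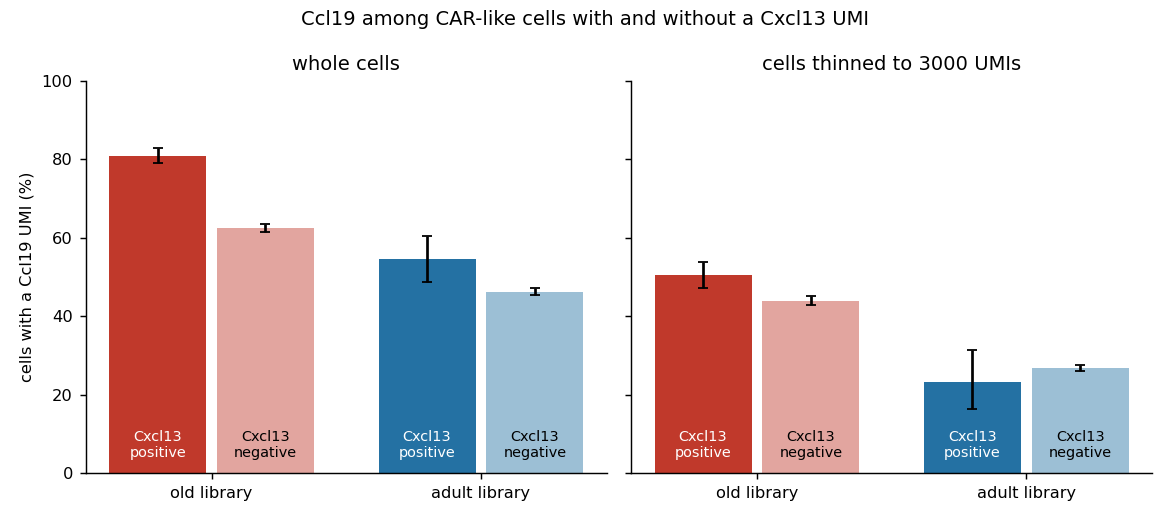
Share of CAR-like cells with a Ccl19 UMI (%, bars from 0, error bars exact 95% binomial intervals) among cells with and without Cxcl13, in the old and the adult library, for whole cells and for cells thinned to 3000 UMIs. In whole old cells the bars stand at 81.0% and 62.5%, and thinned at 50.4% and 44.0%, while the thinned adult intervals overlap.

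Clusters within the CAR-like class differed widely in all 3 genes. Cluster 19, led by the interferon-induced genes Cxcl10, Cxcl9 and Ifit3, was filled by 207 old and 216 adult cells and so allowed the ages to be compared within a cluster. Cxcl13 had 373 CPM in its old cells and 4.01 CPM in its adult cells, a log2 ratio of 6.54, with a UMI in 28.5% of old and 3.24% of adult cells. Ccl19 had 627 CPM in old and 385 CPM in adult cells of the cluster, a log2 ratio of 0.70, and Cxcl14 had 1922 CPM in old and 1028 CPM in adult cells, a log2 ratio of 0.90. Cluster 19 thus held the highest Ccl19 level of any cluster in both libraries, and the highest Cxcl13 level of the old library. Its 16 old cells of 10 or more Cxcl13 UMIs carried most of this, since without them the old level was 65.1 CPM and the log2 ratio 4.02.

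The other CAR-like clusters belong to a single library each. In the old library Cxcl13 had 167 CPM in cluster 2, led by C3 and Saa3, 91.5 CPM in cluster 1, led by Grm7, and 13.9 CPM in cluster 8. In the adult library it had 10.8 CPM in cluster 0, led by Lpl and Tnfsf11, 1.68 CPM in cluster 4 and 1.53 CPM in cluster 3. Ccl19 followed a like order in the old library, with 294 CPM in cluster 2, 218 CPM in cluster 1 and 34.6 CPM in cluster 8. Its order in the adult library differed from that of Cxcl13, with 144 CPM in cluster 3, 110 CPM in cluster 0 and 31.2 CPM in cluster 4. Cxcl14 had 1737 CPM in cluster 1, 1300 CPM in cluster 2 and 354 CPM in cluster 8 of the old library, and 1299 CPM in cluster 0, 1010 CPM in cluster 3 and 374 CPM in cluster 4 of the adult library. Cluster 8 was the lowest old CAR-like cluster in all 3 genes. Cluster 4 was the lowest adult one in Ccl19 and Cxcl14, while for Cxcl13 the intervals of clusters 4 and 3 overlapped. Clusters 8 and 4 had median depths of only 2835 UMIs in old and 2978 UMIs in adult cells.

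The highest Cxcl14 levels were those of unnamed clusters 12 and 13 in the old library and 12 in the adult library. Cluster 5, which holds most unnamed adult cells, had 863 CPM, below adult CAR-like clusters 0, 19 and 3. Cluster 12, led by Lrrtm4 and Kit, with 997 old and 73 adult cells, had 4252 CPM of Cxcl14 in the old library and 3361 CPM in the adult library. Ccl19 in this cluster had 180 CPM in old and 77.6 CPM in adult cells. Cxcl13 ran the other way, with 158 CPM in old and 199 CPM in adult cells of cluster 12 (log2 ratio −0.34, interval −0.55 to −0.11). That adult level is the highest of any adult cluster and rests on 4 of its 73 cells. Without cells of 10 or more Cxcl13 UMIs the cluster had 69.9 CPM in the old and 30.4 CPM in the adult library, a log2 ratio of 1.20. In the old library, unnamed cluster 13 had 306 CPM of Cxcl13, 457 CPM of Ccl19 and 3929 CPM of Cxcl14, and unnamed cluster 9 had 232, 184 and 2012 CPM of these genes. Taking all clusters that scored highest for CAR markers together, 14390 old and 15491 adult cells, the log2 ratios were 4.07 for Cxcl13, 1.14 for Ccl19 and 0.73 for Cxcl14.

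Outside the CAR clusters, all 3 genes were detected in nearly every class, at lower levels than in CAR-like cells of the same library except for Ccl19 in adult fibroblast-like cells. CAR-scoring clusters held 91.6% of Cxcl13, 90.4% of Ccl19 and 90.3% of Cxcl14 UMIs of the old library, and 86.9%, 84.4% and 84.9% of those of the adult library. These clusters made up 75.8% of the kept cells of the old and 69.1% of those of the adult library. Megakaryocyte-like cells, blood cells that should lack these genes, had 99.2 CPM of Cxcl13 in the old library and 3.19 CPM in the adult library. They also had 114 CPM of Ccl19 in the old and 57.5 CPM in the adult library, and 758 CPM of Cxcl14 in the old and 719 CPM in the adult library. Chemokine UMIs were thus present in droplets of blood cells too, at a median depth of 2242 UMIs in old and 2005 UMIs in adult megakaryocyte-like cells. Their positive shares after thinning to 1000 UMIs were 2.49% for Cxcl13, 6.56% for Ccl19 and 24.4% for Cxcl14 in the old library, and 0.464%, 3.71% and 28.4% in the adult library. For Ccl19 and Cxcl14 these lie below the CAR-like shares given above, and for Cxcl13 the counting intervals of both classes overlap in each library. The megakaryocyte-like Cxcl13 level of the old library also rests on few cells, since without 5 cells of 10 or more UMIs it was 36.003 CPM in their main cluster, against 127 CPM with them. With the megakaryocyte-like level of the same library subtracted, CAR-like cells kept 23.8 CPM of Cxcl13 in the old and 3.87 CPM in the adult library, a log2 ratio of 2.62. This level is the highest of the blood classes of the old library. Neutrophil lineage-like cells had 42.6, plasma cell-like 9.72 and erythroid-like 4.15 CPM of Cxcl13 there. The subtraction is therefore not an estimate of free RNA.

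The order of the classes was much alike for the 3 genes. In the old library Cxcl13 followed, after CAR-like and megakaryocyte-like cells, with 42.6 CPM in neutrophil lineage-like, 34.8 in pericyte or smooth muscle-like, 20.4 in osteolineage-like, 14.99 in endothelial-like, 9.72 in plasma cell-like and 4.15 CPM in erythroid-like cells. Neutrophil lineage-like and pericyte-like cells did not differ beyond their intervals, nor did osteolineage-like and endothelial-like cells or endothelial-like and plasma cell-like cells. The pericyte-like level rests on few cells, since without those of 10 or more UMIs it was 6.99 CPM. Single old cells held 87 of the 228 osteolineage-like, 153 of the 435 plasma cell-like, 32 of the 180 erythroid-like and 27 of the 81 neutrophil lineage-like UMIs. The order of these classes for Cxcl13 is therefore less certain than the intervals show. In the adult library no class other than CAR-like cells exceeded 4.48 CPM of Cxcl13, the level of 93 fibroblast-like cells with 4 UMIs. The 64 neutrophil lineage-like and 249 chondrocyte-like adult cells had no Cxcl13 UMI.

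For Ccl19 the old order ran 92.6 CPM in neutrophil lineage-like, 69.9 in osteolineage-like, 62.1 in pericyte or smooth muscle-like, 60.0 in endothelial-like, 13.2 in plasma cell-like and 8.62 CPM in erythroid-like cells. Osteolineage-like, pericyte-like and endothelial-like cells did not differ beyond their intervals. In the adult library the fibroblast-like cells, with 170 CPM of Ccl19 (144 to 200), stood above the CAR-like cells at 119 CPM. Osteolineage-like cells had 69.9 CPM of Ccl19 in the old and 25.9 CPM in the adult library, a log2 ratio of 1.43, and endothelial-like cells had 60.0 CPM in the old and 27.4 CPM in the adult library, a log2 ratio of 1.13. For Cxcl14, osteolineage-like cells had 503 CPM in the old and 265 CPM in the adult library, and endothelial-like cells had 394 CPM in the old and 274 CPM in the adult library. The old library was thus higher in these classes as it was in CAR-like cells. Within the osteolineage-like class, cluster 26, led by Col10a1, Mepe and Spp1, stood out with 2877 CPM of Cxcl14 in 78 old cells and 543 CPM in 56 adult cells, against 72.1 CPM of Ccl19 in old and 5.50 CPM in adult cells.

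Within a library, the ratio of Cxcl14 to Ccl19 varied less between the named classes than between some clusters. There were 6.003 Cxcl14 UMIs per Ccl19 UMI in old CAR-like cells and 9.47 in adult ones. In the other named classes the ratio was 5.55 to 8.94 in the old library, and 4.50 in fibroblast-like and 7.84 to 12.5 in the remaining classes of the adult library. The unnamed CAR-scoring cells had 14.3 in the old and 14.98 in the adult library, and among them cluster 12 had 23.6 in old and 43.3 in adult cells. Cluster 26 stood at 39.9 in its old cells (27.6 to 59.8) and at 98.7 in its adult cells, there from only 3 Ccl19 UMIs. The part of free RNA in these levels was not tested.

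**Figure D4:**
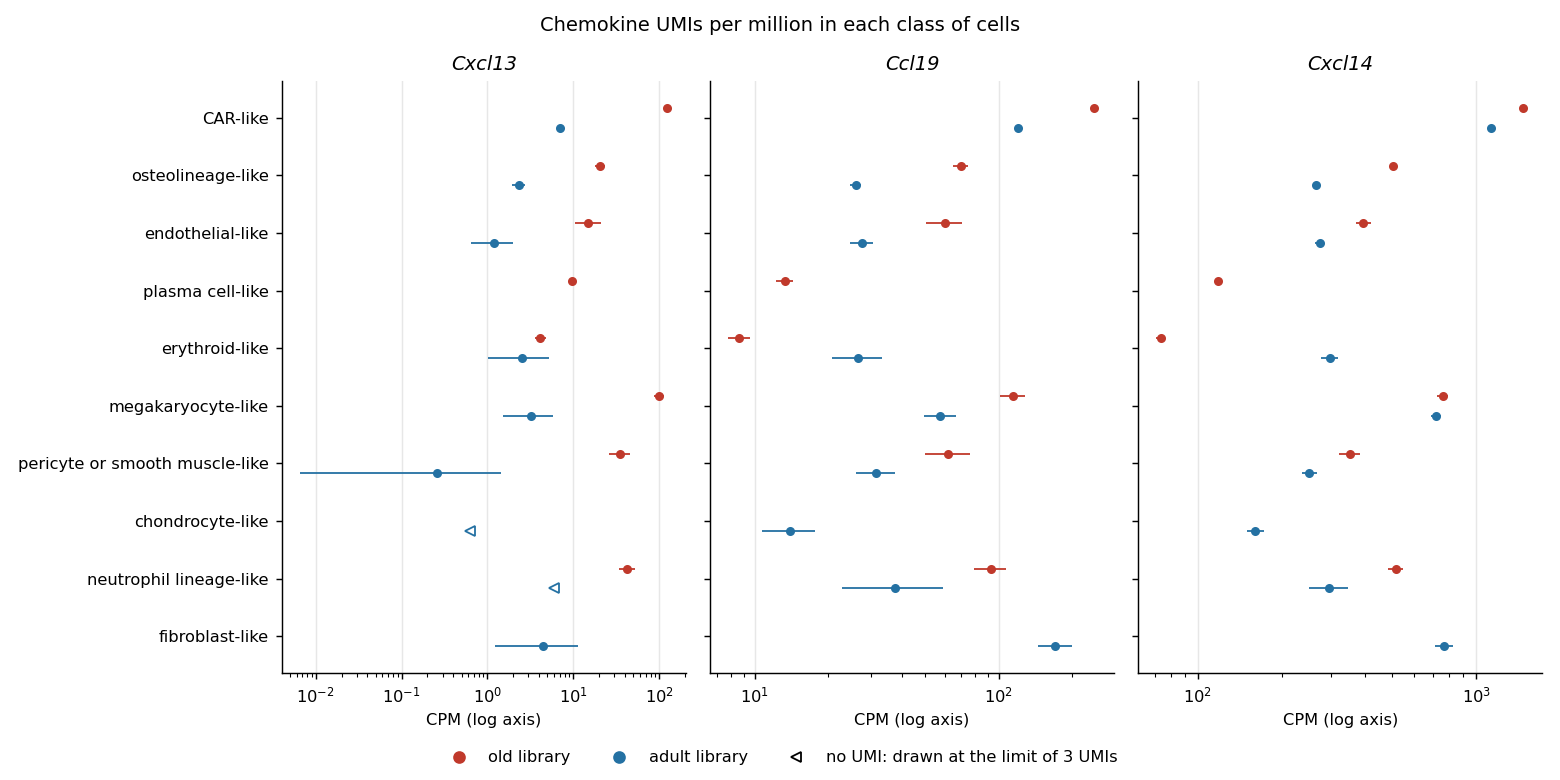
CPM (log axis) of Cxcl13, Ccl19 and Cxcl14 in each named class of at least 50 cells, with the old library in red above the adult library in blue, bars being exact 95% Poisson intervals and open triangles the limit of 3 UMIs where no UMI was counted. CAR-like cells stand at 122.9 and 7.06 CPM for Cxcl13 in the old and the adult library, and erythroid-like cells are the class where Ccl19 and Cxcl14 are lower in the old library.

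The other homeostatic chemokines past the minimum were slightly lower in the old library. Of 15 homeostatic chemokines, the 3 genes included, 5 passed the minimum in CAR-like cells, 3 of which are the genes chosen for this contrast, so no median of the list is given. Cxcl12, which holds blood stem cells and B cell precursors in the marrow, had 7881 CPM in old and 8821 CPM in adult CAR-like cells, a log2 ratio of −0.16. Cx3cl1, a membrane-bound attractant of monocytes, had 74.6 CPM in old and 107 CPM in adult cells, a log2 ratio of −0.52. Below the minimum, Cxcl16 had 29.7 CPM in old and 12.97 CPM in adult cells, and Ccl21a, the other ligand of Ccr7, had 4 UMIs in old and none in adult cells.

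Of 22 other, mostly inflammatory, chemokines, 4 passed the minimum and none was 2-fold apart, with a median log2 ratio of −0.24. Over all 4182 genes 4.69% were 2-fold apart, with a median of 0.01, so nothing is read from the count of these 4. Cxcl9 had 317 CPM in old and 313 CPM in adult cells, Cxcl10 109 in old and 134 in adult, Ccl2 104 in old and 119 in adult, and Cxcl1 53.5 in old and 73.6 in adult. Cxcl5, under the minimum, had 20.6 CPM in old and 2.42 CPM in adult cells.

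Receptors of the 3 chemokines were scarce in CAR-like cells except for the scavenger Ackr4. Ackr4 had 183 CPM in old and 221 CPM in adult CAR-like cells, a log2 ratio of −0.28, and was the only 1 of 6 receptors past the minimum. Cxcr5, the receptor of Cxcl13, had 5.08 CPM in old and 7.61 CPM in adult CAR-like cells. Ccr7 had 0.226 CPM in old and 0.318 CPM in adult CAR-like cells, and 6.84 CPM in old and 11.9 CPM in adult neutrophil lineage-like cells. Ackr3, a scavenger best known for Cxcl12, had 23.3 CPM in old and 17.3 CPM in adult osteolineage-like cells, and 39.4 CPM in old and 20.8 CPM in adult endothelial-like cells. It exceeded Ackr4 in adult fibroblast-like cells, at 94.1 against 52.6 CPM, and in adult chondrocyte-like cells, at 42.02 against 26.9 CPM. None of 17 further chemokine receptors passed the minimum in CAR-like cells. Blood cells, the usual bearers of Cxcr5 and Ccr7, had been depleted before sorting, though not fully.

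Signalling by lymphotoxin through the non-canonical NF-kB pathway is known to drive Cxcl13 and Ccl19 in lymph node stroma. Of 24 genes of lymphotoxin and NF-kB signalling, not of the non-canonical pathway alone, 9 passed the minimum in CAR-like cells. None was 2-fold apart, and the median log2 ratio was 0.21. Over all 4182 genes 4.69% were 2-fold apart, with a median of 0.01, so nothing is read from the count of these 9. Map3k14 had 78.1 CPM in old and 48.1 CPM in adult cells, a log2 ratio of 0.70, and Birc3 124 in old and 86.0 in adult, a log2 ratio of 0.53. Relb had 76.5 CPM in old and 66.1 CPM in adult cells, and Nfkbia, which encodes an inhibitor of NF-kB, 264 in old and 368 in adult. The lymphotoxin receptor gene Ltbr lay under the minimum, with 29.4 CPM in old and 30.0 CPM in adult cells. Other genes of the list under the minimum went both ways. Traf1 had 5.63 CPM in old and 1.13 CPM in adult cells, and Tnfsf14 had 88 UMIs in old and 11 in adult cells. The lymphotoxin genes were lower in old cells, with 36 UMIs of Ltb in old and 92 in adult, and 6 of Lta in old and 21 in adult.

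Genes of lymphoid-tissue stroma went both ways. Of 23 genes, 9 passed the minimum, of which 2 were higher in the old library by 2-fold or more and 1 was lower by as much, with a median log2 ratio of −0.08. Over all 4182 genes 2.94% were higher and 1.75% lower by as much, with a median of 0.01. The list was chosen with earlier results of these data known, so nothing is read from its count. Enpp2, which encodes autotaxin, had 102 CPM in old and 9.46 CPM in adult cells, a log2 ratio of 3.43. C4b, a complement component, had 561 CPM in old and 237 CPM in adult cells, a log2 ratio of 1.24. Tnfsf11, which encodes RANKL, had 185 CPM in old and 892 CPM in adult cells, a log2 ratio of −2.27. The adhesion molecule gene Icam1 had 92.2 CPM in old and 51.8 CPM in adult cells, whereas Vcam1 had 1122 in old and 1947 in adult and Il7, the B cell precursor cytokine, 126 in old and 213 in adult. Mfge8 hardly differed over the whole class, at 78.8 CPM in old and 83.3 CPM in adult cells. Bst1 had 2.67 CPM in old and 0.113 CPM in adult cells and Tnfsf13b 30.5 in old and 5.11 in adult, both under the minimum.

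**Figure D5:**
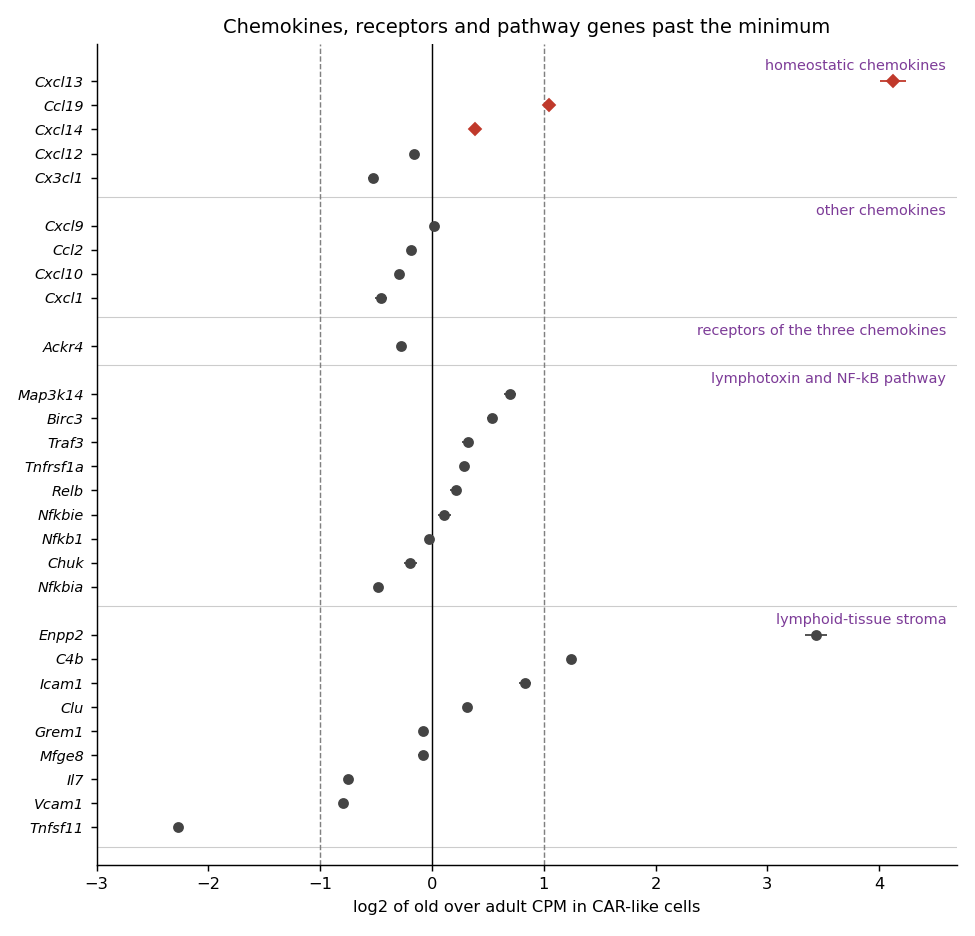
Log2 of old over adult CPM in CAR-like cells for the genes of 5 lists that passed the minimum, with exact 95% intervals from counting error, dashed lines at 2-fold and the 3 chemokines as red diamonds. Cxcl13 lies at 4.12, Enpp2 at 3.43 and Tnfsf11 at −2.27, and no gene of the NF-kB list passes either dashed line.

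Genes whose levels over clusters were most like those of each chemokine were sought over 41 points, each a cluster in a library with at least 50 cells, among 8618 genes. Likeness was Pearson's r of log2(CPM + 10), given as a description because the points share libraries and free RNA. For Cxcl13 the 5 most alike genes were Tnfsf13b (r = 0.882), Susd2 (0.875), Efemp1 (0.864), Serpina3c (0.852) and Gm7592 (0.842). For Ccl19 they were its near copy Ccl19-ps2 (r = 0.945), C1ra (0.936), H2-Q10 (0.93), Tapbp (0.905) and C2 (0.904). Those around Ccl19 include complement and antigen presentation genes. For Cxcl14 they were Sfrp1 (r = 0.902), Gas6 (0.892), Cebpa (0.89), Mdk (0.884) and Hp (0.878). The 3 chemokines did not share any of these genes, and among themselves r was 0.824 for Ccl19 with Cxcl14, 0.714 for Cxcl13 with Ccl19 and 0.696 for Cxcl13 with Cxcl14.

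Ccl19 has annotated near copies in the mouse genome, so reads can be divided among them in counting. Ccl19-ps2 had 56.7 CPM in old CAR-like cells (5020 UMIs) and 32.3 CPM in adult ones (3149 UMIs), a log2 ratio of 0.81, which is 23.0% of the Ccl19 UMIs in the old and 27.1% in the adult library. It was found in 36.3% of old cells with Ccl19 and 10.4% of those without, and in 27.2% of adult cells with Ccl19 and 9.68% of those without. With the UMIs of both rows summed, the log2 ratio of Ccl19 was 0.999 and stood just short of 2-fold. How reads were divided between the copies was not tested, so the level of Ccl19 is uncertain by an unknown amount.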

How the data were processed

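Single-cell 3′ RNA counts were analysed in 1 old and 1 adult library of sorted marrow stroma, prepared with Chromium Next GEM chemistry per the labels' protocols. The deposited matrices hold raw UMI counts per gene and barcode, made by the authors with Cell Ranger 7.0.1 per the file headers, on GRCm39 per the submitters' processing notes. The lowest barcode deposited for either library holds 500 UMIs.

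From these counts, cells with at least 500 genes and at most 10% mitochondrial UMIs were kept, leaving out 3323 old and 3232 adult barcodes. Both libraries were clustered together with scanpy 1.11.5 (2000 variable genes without the 3 chemokines, 50 components, 15 neighbours, Leiden resolution 1). Clusters were named from 24 marker lists, by score and leading genes, and a name ending in "-like" rests on these lists alone. Scrublet called no cell of either library a doublet and so had not worked. No doublets were removed, and its scores serve only for an alternative of doubtful value. UMIs were summed per library and class and divided by the class's total. With 1 library per age no test was made and no p-value is given. Intervals are exact at 95% (Poisson for levels, conditional binomial for ratios, Clopper-Pearson for shares) and cover counting error only, and the limit for a count of 0 is 3 counts. For ratios, genes needed 50 CPM and 50 UMIs in the higher library, and "called" means 2-fold apart. The ratio calculation was tested on simulated counts.

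The genes named are the 3 chemokines, the genes of 6 lists with their values in CAR-like cells, and for each chemokine the 5 genes most alike over clusters. The genes shown for the cells of highest Cxcl13, and genes under the minimum, were added after their values were seen. The members and all lists were chosen with earlier results of these data known. Promoter sequences come from RefSeq tables. The alternatives tried are the filters, the clustering, the choice of CAR-like cells, the scaling and the subtraction of the megakaryocyte-like level.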

Additional observations from a re-analysis of the deposited data

Results flagged for a closer look

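In erythroid-like cells Ccl19 and Cxcl14 ran against their direction in CAR-like cells. Ccl19 had 8.62 CPM in 1040 old and 26.4 CPM in 246 adult erythroid-like cells, a log2 ratio of −1.62, and Cxcl14 had 73.5 CPM in old and 297 CPM in adult ones, a log2 ratio of −2.02. The median depth was 43556 UMIs in old and 8090 UMIs in adult erythroid-like cells. The difference from CAR-like cells was not tested, and the part of depth was not tested.

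In unnamed cluster 12, Cxcl13 also ran against the CAR-like cells, with a log2 ratio of −0.34 from 997 old and 73 adult cells. The difference was not tested, and without cells of 10 or more Cxcl13 UMIs the ratio was 1.20.

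Ccl19-ps2, a near copy that lies outside the 3 genes, had 56.7 CPM in old and 32.3 CPM in adult CAR-like cells.

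Barcodes left out by the filters also held the 3 genes. Those of the old library had 33.0 CPM of Cxcl13, 51.5 CPM of Ccl19 and 436 CPM of Cxcl14, and those of the adult library had 1.20, 34.7 and 288 CPM of the same genes. Their median depth was 1138 UMIs in the old and 1120 UMIs in the adult library.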

How the results depend on the processing

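No log2 ratio changed sign under any alternative run, 16 for Cxcl13, 15 for Ccl19 and 14 for Cxcl14. Only 1 library per age was used, so none could be left out. No paired analysis was possible because each age has a single library.

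For Cxcl13 (4.12), values outside the counting interval were 3.96 with at least 1000 genes per cell, 3.73 at Leiden resolution 0.5, 4.25 at resolution 2, 3.98 with 4000 variable genes, 3.56 with each library clustered alone, 3.95 with a gate on Cxcl12 and Lepr, 3.97 with cells weighted alike and 2.62 with the megakaryocyte-like level subtracted. Chosen after seeing the data, leaving out cells of 100 or more Cxcl13 UMIs gave 3.63 and of 10 or more 2.89.

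For Ccl19 (1.05) they were 1.11 with each library clustered alone, 1.09 with the gate and 1.10 after subtraction, and, chosen after seeing the data, 1.14 over all CAR-scoring clusters and 0.999 with Ccl19-ps2 added.

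For Cxcl14 (0.39) they were 0.43 with at least 1000 genes, 0.37 with at most 5% mitochondrial UMIs, 0.50 at resolution 2, 0.41 with 4000 variable genes, 0.68 with the gate, 0.37 without the top 10% of scores of the doublet caller that made no calls, 0.37 with cells weighted alike, 0.37 centred on the median of all genes, 0.81 after subtraction and, chosen after seeing the data, 0.73 over all CAR-scoring clusters.

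The old share of Cxcl13-positive cells with Ccl19 (81.0%) was 78.3% at resolution 2, 77.3% with the library clustered alone, 67.6% with 2 or more UMIs of each gene, 50.4% thinned and, chosen after seeing the data, 78.2% over all CAR-scoring clusters and 84.2% in cells of at least 5000 UMIs. The cause of these shifts was not tested. Adult statements on Cxcl13 in CAR-like cells rest on 688 UMIs.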
